A study of Mus musculus with 12 samples.

Results

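The response to doxycycline (Dox) of rtTA-Dmrt5 cells at day 9 of neural differentiation was taken from 4 of the 12 arrays of the series, chosen by their titles: 2 arrays labelled rtTA-Dmrt5, day 9, +Dox and 2 labelled rtTA-Dmrt5, day 9, -Dox. Both groups are mouse embryonic stem (ES) cells that carry the rtTA activator and a tetracycline-inducible Dmrt5 transgene, grown as a monolayer in N2B27 medium until day 9; in the +Dox group Dox had been present from day 5, so for 4 days. Each group thus has n = 2 arrays, which limits the precision of every value. Separate cultures are not named in the labels, and the p-values therefore rest on a spread between arrays that may be technical. The other 8 arrays are the same line and the parental rtTA line, both at day 7. Each line has 2 arrays after 2 days of Dox and 2 without it. No parental array of day 9 was analysed here, so an effect of 4 days of Dox alone cannot be told apart from one of the transgene. The sources used here do not say whether the rtTA-Dmrt5 line is a single clone. Per the labels, 5 ng of total RNA per sample was amplified and hybridised. A gene's value is its log2 array signal after subtraction of the median of the 12 arrays, and it therefore compares arrays and gives no level. Changes are log2 fold changes ± standard error (SE), arrays labelled +Dox minus arrays labelled -Dox.

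Dmrt5 is another name of Dmrta2. It belongs to the family of transcription factors that bind DNA through a DM domain, the zinc-binding domain shared by doublesex of flies and mab-3 of worms. In the mouse embryo Dmrta2 acts in progenitors of the cortex and of the ventral midbrain, where position along the body axis and the choice between progenitor and neuron are set by homeobox, forkhead and bHLH factors together with secreted Wnt, Fgf, Bmp and hedgehog signals. ES cells grown in N2B27 without serum pass through neural progenitors to neurons, and cells of other lineages can remain among them.

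Of 16 progenitor and radial glia genes, 15 had a median log2 signal of at least 8 over the 12 arrays by the reading described under the methods, Sox1, Sox2, Nes and Vim among them. This is 1 class per gene over both lines and both days, and gives no level for either day 9 group.

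Dmrta2 itself was lower, not higher, in the arrays labelled +Dox. Its single probe set read -1.07 and -1.92 in the arrays labelled +Dox, against 1.07 and 1.16 in those labelled -Dox, a change of -2.61 ± 0.33 (adjusted p = 0.000495, limma). Both +Dox arrays lay below both -Dox arrays. They also lay below every parental array of day 7, with or without Dox, which spanned -0.28 to 0.41. The sources used here give neither the stretch of the transcript that the probe set reads nor the extent of the transgene. A probe set outside the transgene would read the cell's own gene only, and would then be no check of the labels. This direction is the opposite of what the label implies for the transgene, so each group is named below by its label alone.

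The promoter of the cell's own Dmrta2 gene is shown because this gene's signal was among the 15 largest falls, beside those of Nr2e1, the largest fall in signal, and Wnt1, a secreted signal of the midbrain-hindbrain boundary that was among the 15 largest rises. The windows lie at chr4:109977775-109978074 (+ strand), chr10:42583541-42583840 (- strand) and chr15:98789607-98789906 (+ strand), and run from 250 bases before to 50 bases after the RefSeq transcript start (GRCm38.p6), and capitals mark the letters ACAATGT, searched on both strands (ACATTGT on the other), which lie within the site that mammalian DMRT1 binds in vitro. 
Dmrta2: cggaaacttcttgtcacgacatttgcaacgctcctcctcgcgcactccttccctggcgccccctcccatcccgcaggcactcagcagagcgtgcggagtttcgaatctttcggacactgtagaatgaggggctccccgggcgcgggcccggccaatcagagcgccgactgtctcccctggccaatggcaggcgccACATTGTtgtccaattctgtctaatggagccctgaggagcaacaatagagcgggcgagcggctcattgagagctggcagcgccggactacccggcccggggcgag
Nr2e1: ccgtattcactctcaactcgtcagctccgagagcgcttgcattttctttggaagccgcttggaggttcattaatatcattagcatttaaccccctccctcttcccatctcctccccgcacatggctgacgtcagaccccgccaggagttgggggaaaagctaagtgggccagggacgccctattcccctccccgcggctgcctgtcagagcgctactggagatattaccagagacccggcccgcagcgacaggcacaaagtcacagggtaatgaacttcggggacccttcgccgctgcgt
Wnt1: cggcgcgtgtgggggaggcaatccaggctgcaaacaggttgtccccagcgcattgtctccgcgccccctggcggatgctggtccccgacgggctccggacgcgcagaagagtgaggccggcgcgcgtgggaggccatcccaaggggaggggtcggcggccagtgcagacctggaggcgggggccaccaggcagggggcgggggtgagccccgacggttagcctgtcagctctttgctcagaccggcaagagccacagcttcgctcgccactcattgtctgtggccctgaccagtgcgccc
Of the 13 rises and 11 falls with a window in the RefSeq table, 0 and 1 held these letters, and the holder was Dmrta2. Over all 32851 windows of this length 2.96% held them. These are matches of letters and not measured binding, and a window without them says nothing about DMRT proteins elsewhere.

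In all, 5129 of 18193 genes passed an adjusted p of 0.05 in limma, 28.2% of those tested. Of them 3076 were higher (16.9% of all genes) and 2053 lower (11.3%) in the arrays labelled +Dox, and for 801 of them the change was 2-fold or more (4.4% of all genes), upward for 464 and downward for 337. The median change over all genes was 0.010. In each of these 5129 genes the groups did not overlap, as in 62% of all genes. The count fell to 3063 without replicate 1 of the arrays labelled -Dox. Control probe sets also separated the groups: hybridisation spike-ins, added to the samples as controls, read -0.79 and -0.66 in the arrays labelled +Dox, against 0.010 and 0.17 in those labelled -Dox, a difference of -0.81 (pooled SD 0.13), and the 3' minus 5' signal of Actb, a measure of RNA integrity, read 0.23 and 0.20 in the arrays labelled +Dox, against 0.0046 and -0.053 in those labelled -Dox. The 3' minus 5' signal of Gapdh read 0.18 and 0.11, against 0.055 and 0.0039. In each of these measures both arrays labelled +Dox lay outside the range of the 8 day 7 arrays. That range was -0.34 to 0.19 for spike-ins, -0.37 to 0.065 for Actb and -0.14 to 0.049 for Gapdh. For Gapdh, replicate 1 of the arrays labelled -Dox also lay outside it. The polyA controls of the arrays labelled +Dox lay inside, at -0.045 and -0.031. The part of these control differences in the gene changes was not tested. In a mixed culture, fewer cells of a type and less RNA per cell cannot be told apart.

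Foxc2, a forkhead transcription factor of mesoderm and vessels, had the largest rise in signal. Its values were 0.010 and 0.090 in the arrays labelled +Dox, against -4.39 and -4.27 in those labelled -Dox, a change of 4.38 ± 0.16 (adjusted p = 1.42e-06). Its median signal is in the class of 4 to 8, so both arrays labelled -Dox read under 4 on the log2 scale. No detection calls were analysed here, so it is not known whether such arrays read above background, and the changes are differences of signal that may understate those of RNA. None of the 15 largest rises was in the class of at least 8, 5 were in that of 2 to 4 and 10 in that of 4 to 8. For Foxc2 the parental arrays of day 7, with and without Dox, spanned -0.36 to 0.51. This span holds both day 9 arrays labelled +Dox and neither labelled -Dox. It comes from another line and day, so it does not settle which day 9 group had moved. Krtap17-1, a keratin-associated gene, read 3.79 and 3.79 in the arrays labelled +Dox, against -0.21 and -0.38 in those labelled -Dox, and its change was 4.08 ± 0.15. Ddn, which encodes dendrin of synapses and podocytes, rose by 3.62 ± 0.19, and Islr, a marker of mesenchymal stroma, by 3.41 ± 0.25. Here the 2 Islr arrays labelled +Dox lay close together, at 3.54 and 3.57, far above 0.090 and 0.20 in those labelled -Dox.

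Secreted signals and a secreted inhibitor made up 4 of the 15 largest rises. Wif1, which binds and blocks Wnt proteins, read 2.60 and 2.81 in the arrays labelled +Dox, against -0.23 and -0.28 in those labelled -Dox (2.95 ± 0.15). Inhbb, the beta-B subunit of activins and inhibins, read 2.99 and 3.11 in the arrays labelled +Dox, against 0.17 and 0.21 in those labelled -Dox (2.86 ± 0.13). Both genes lay near the series median in the arrays labelled -Dox and far above it in both arrays labelled +Dox. Fgf18, a fibroblast growth factor, read 1.16 and 0.72 in the arrays labelled +Dox, against -1.60 and -1.75 in those labelled -Dox (2.62 ± 0.14), and Wnt1 read 2.06 and 1.40 in the arrays labelled +Dox, against -0.41 and -0.93 in those labelled -Dox (2.40 ± 0.24). For these, the arrays labelled -Dox lay below the median and those labelled +Dox above it, with no overlap. Pla2g7, a secreted enzyme that breaks down platelet-activating factor, rose by 2.60 ± 0.12. The remaining rises were the contactin gene Cntn6 (2.84 ± 0.24), 3110039M20Rik (2.69 ± 0.19), Aldh1a7 (2.66 ± 0.32), the sodium channel gene Scn11a (2.56 ± 0.19), Micalcl (2.46 ± 0.12) and the endolysosomal channel gene Mcoln3 (2.41 ± 0.16). Because Aldh1a7 closely resembles Aldh1a1, cross-reading of their transcripts is possible, and its value is uncertain. The last gene inside the 15 changed by 2.40 and the first outside by 2.39.

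Transcription factors headed the falls. Nr2e1, a nuclear receptor that keeps forebrain neural stem cells dividing, read -2.39 and -3.38 in the arrays labelled +Dox, against 1.58 and 1.57 in those labelled -Dox, a change of -4.46 ± 0.25 (adjusted p = 6.88e-06). Its median signal is in the class of 4 to 8, as for 13 of the 15 largest falls. The limit given for Foxc2 applies to its arrays labelled +Dox. Averaged over all probe sets, Nr2e1 changed by -2.44 and Otx1 by -3.82, so the rank of Nr2e1 rests on its brightest probe sets. The homeobox gene Shox2 read -1.26 and -1.76 in the arrays labelled +Dox, against 2.37 and 2.56 in those labelled -Dox (-3.98 ± 0.21), and Otx1, a homeobox gene of forebrain and midbrain, read -1.67 and -2.14 in the arrays labelled +Dox, against 1.94 and 1.90 in those labelled -Dox (-3.82 ± 0.16). In each of these 3 genes both +Dox arrays lay below the series median and both -Dox arrays above it. Foxn4, a forkhead factor of ventral interneuron progenitors, read -1.74 and -1.62 in the arrays labelled +Dox, against 1.72 and 1.65 in those labelled -Dox (-3.37 ± 0.13). The AP-2 factor Tfap2d (-3.08 ± 0.26) and Gsx1, a homeobox gene of ventral progenitors (-2.64 ± 0.33), also fell. For Gsx1 and Nr2e1 the 2 arrays labelled +Dox lay about 1 log2 unit apart, at -1.95 and -3.02 and at -2.39 and -3.38.

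The other large falls were in enzymes, a receptor and secreted proteins. Cyp26b1, which degrades retinoic acid, changed by -3.03 ± 0.25, and Ndst3, which sulfates heparan chains, by -2.89 ± 0.28. Ndnf, a secreted protein of Cajal-Retzius cells, changed by -2.81 ± 0.15. Glra1, a glycine receptor subunit, changed by -2.69 ± 0.22. Mxra7, a matrix remodelling gene, changed by -3.02 ± 0.31, with the +Dox arrays far apart at -3.18 and -1.94. Gm38604 (-3.51 ± 0.17), G630016G05Rik (-3.32 ± 0.18) and Gm20083 (-2.66 ± 0.17) have no role known here. The 15 largest falls ended at -2.61, and the next gene outside changed by -2.61. All 30 genes kept their call when any 1 of the 4 arrays was left out. The plot of values per array shows the separation for these 30 genes.

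**Figure D1:**
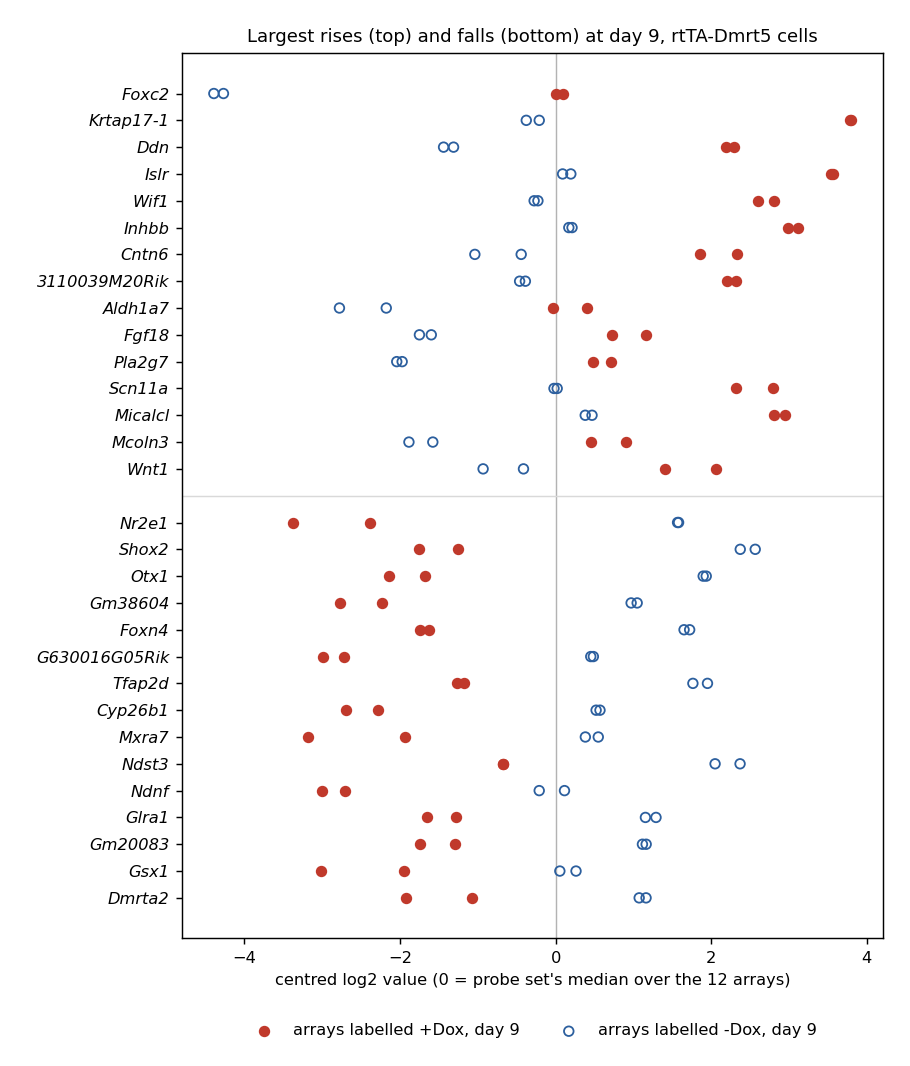
Centred log2 value (horizontal axis, 0 is the probe set's median over the 12 arrays) of the 15 largest rises (top) and 15 largest falls (bottom) at day 9. Filled red points are the 2 arrays labelled +Dox and open blue points the 2 labelled -Dox; for Foxc2 the +Dox arrays sit at 0.010 and 0.090 and the -Dox arrays at -4.39 and -4.27.

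Most measured genes that pattern the forebrain fell. Of 25 measured forebrain and anterior patterning factors, 15 fell, 2 rose (1 to 2 with 1 array left out) and 8 did not pass, with a median change of -0.97. For this and each list below, the background is that 16.9% of all genes rose and 11.3% fell. Beside Nr2e1, Shox2, Otx1 and Tfap2d, the falls included Pax6, the paired-box factor of cortical progenitors (-1.45 ± 0.17), the zinc-finger gene Sp8 (-1.69 ± 0.12), and Six3, which specifies anterior forebrain and eye (-1.62 ± 0.15). Pax6 read -1.31 and -1.69 in the arrays labelled +Dox, against -0.064 and -0.043 in those labelled -Dox, so the groups did not overlap. Barhl2 (-1.82), Irx3 (-1.40) and Fezf1 (-1.19) also fell, as did the nuclear receptor genes Nr2f2 (-1.68) and Nr2f1 (-0.98). Otx2, needed for forebrain and midbrain, also fell (-0.97 ± 0.091). The 2 that rose were Tfap2c (1.11 ± 0.12), an AP-2 factor also found in surface ectoderm, and Lhx5 (0.36 ± 0.091). Lhx5 did not pass without replicate 2 of the arrays labelled +Dox, replicate 1 of the arrays labelled -Dox or replicate 2 of the arrays labelled -Dox (adjusted p = 0.071, 0.0726 and 0.0655). Emx2, a cortical homeobox gene (-0.26, adjusted p = 0.205), and Emx1 (-0.58, adjusted p = 0.0692) did not pass.

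The Dmrt family held 5 falls and 0 rises among 8 genes. Dmrt3, of the same subfamily as Dmrta2, read -1.10 and -1.31 in the arrays labelled +Dox, against 1.12 and 1.05 in those labelled -Dox (-2.29 ± 0.20), and Dmrta1 read -0.93 and -1.12 in the arrays labelled +Dox, against 0.42 and 0.49 in those labelled -Dox (-1.48 ± 0.21). Dmrtb1 (-0.77) and Dmrt1, a testis factor (-0.41), passed with smaller falls, and Dmrt2 did not pass (-0.028 ± 0.29). Dmrtb1 did not pass without replicate 2 of the arrays labelled +Dox or replicate 1 of the arrays labelled -Dox (adjusted p = 0.0511 and 0.0719). Dmrt1 did not pass without replicate 2 of the arrays labelled +Dox, replicate 1 of the arrays labelled -Dox or replicate 2 of the arrays labelled -Dox (adjusted p = 0.13, 0.0543 and 0.136).

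The lists of the ventral telencephalon and of ventral-lateral midbrain held more falls than rises. In the ventral telencephalon list 6 of 12 fell and 0 rose, among them Isl1 (-2.0 ± 0.25), a LIM homeobox gene, and the GABAergic fate genes Dlx1 (-1.51 ± 0.23) and Dlx2 (-1.48 ± 0.34). Dlx2 did not pass without replicate 1 of the arrays labelled +Dox or replicate 2 of the arrays labelled -Dox (adjusted p = 0.0619 and 0.0717). In the ventral-lateral midbrain and interneuron list 7 of 17 fell and 3 rose. Tal1 (-2.33 ± 0.26), Gata3 (-0.98 ± 0.21) and Gata2 (-0.79 ± 0.13), which select GABAergic identity in the midbrain, were among the falls, as were Pou4f1, a marker of red nucleus neurons (-2.08 ± 0.14), and Lhx1 (-0.96 ± 0.11). Olig2 went the other way: it read 1.20 and 1.18 in the arrays labelled +Dox, against 0.34 and 0.21 in those labelled -Dox, a rise of 0.92 ± 0.20 (adjusted p = 0.00813). Nkx6-1 rose too (1.08 ± 0.31). Nkx6-1 did not pass with any 1 of the 4 arrays left out (adjusted p from 0.0584 to 0.136). With any 1 of the 4 arrays left out, 1 to 2 of this list rose.

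The midbrain floor plate list was divided, with 5 rises (3 to 6 with 1 array left out) and 5 falls among 15 genes. Foxa2, the forkhead factor that specifies the floor plate, read 1.83 and 1.62 in the arrays labelled +Dox, against -0.014 and -0.024 in those labelled -Dox (1.74 ± 0.19). Wnt5a, a secreted Wnt of ventral midbrain, read 1.41 and 1.57 in the arrays labelled +Dox, against -0.61 and -0.60 in those labelled -Dox (2.10 ± 0.15). These were the largest rises of the list after Wnt1. The signal made by the floor plate, Shh (-0.90 ± 0.18), the guidance cue Slit2 (-0.96 ± 0.12) and Lmx1b, a LIM homeobox gene of dopaminergic progenitors (-1.01 ± 0.12), fell. Its partner Lmx1a changed by 0.96 ± 0.35 and did not pass (adjusted p = 0.0658), with 1.42 and 0.54 in the arrays labelled +Dox against -0.11 and 0.15 in those labelled -Dox.

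Midbrain dopaminergic neuron genes showed no common direction. Their list also holds En1 and En2, which are counted again in the midbrain-hindbrain boundary list. Of 13, 4 rose and 2 fell. Th, whose enzyme makes the dopamine precursor, did not pass (-0.41 ± 0.21, adjusted p = 0.186), nor did Pitx3 (-0.18 ± 0.13), a factor of dopaminergic neurons, whose median signal was in the class of 2 to 4. At day 7 the response of Th was -1.79 ± 0.21, and the difference between the days was 1.38 ± 0.30 (adjusted p = 0.0487, up to 0.157 with 1 array left out). Nr4a2, the nuclear receptor that drives their differentiation, fell (-0.45 ± 0.11). En1 and En2, paired homeobox genes of the midbrain-hindbrain region, split: En1 rose by 0.38 ± 0.12 while En2 fell, reading -1.88 and -1.65 in the arrays labelled +Dox, against 0.019 and -0.019 in those labelled -Dox (-1.77 ± 0.16). Nr4a2 did not pass without replicate 1 of the arrays labelled +Dox or replicate 2 of the arrays labelled -Dox (adjusted p = 0.0811 and 0.0822). En1 did not pass with any 1 of the 4 arrays left out (adjusted p from 0.0629 to 0.226). With any 1 of the 4 arrays left out, 1 to 2 dopaminergic genes rose and 1 to 3 fell.

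Around the midbrain-hindbrain boundary, several Fgf and Wnt signals rose. Of 12 genes 6 rose and 3 fell. Besides Wnt1 and Fgf18, Fgf17 (1.48 ± 0.15) and Fgf15 (1.30 ± 0.093) rose, while Fgf8, the main organizer signal, did not pass (-0.35 ± 0.13, adjusted p = 0.0731). Gbx2, a homeobox gene of anterior hindbrain (-1.04 ± 0.19), and the Fgf signalling modulator Cnpy1 (-1.34 ± 0.13) fell. Hindbrain and Hox genes had 5 rises and 0 falls among 15. Hoxb3 (1.46 ± 0.24) and Hoxb4 (1.08 ± 0.21) rose, and Hoxa3 (-0.20) and Hoxa5 (-0.055) did not pass. With any 1 of the 4 arrays left out, 2 to 6 of the Hox list rose and 0 to 1 fell. The plot of patterning genes sets these groups side by side.

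**Figure D2:**
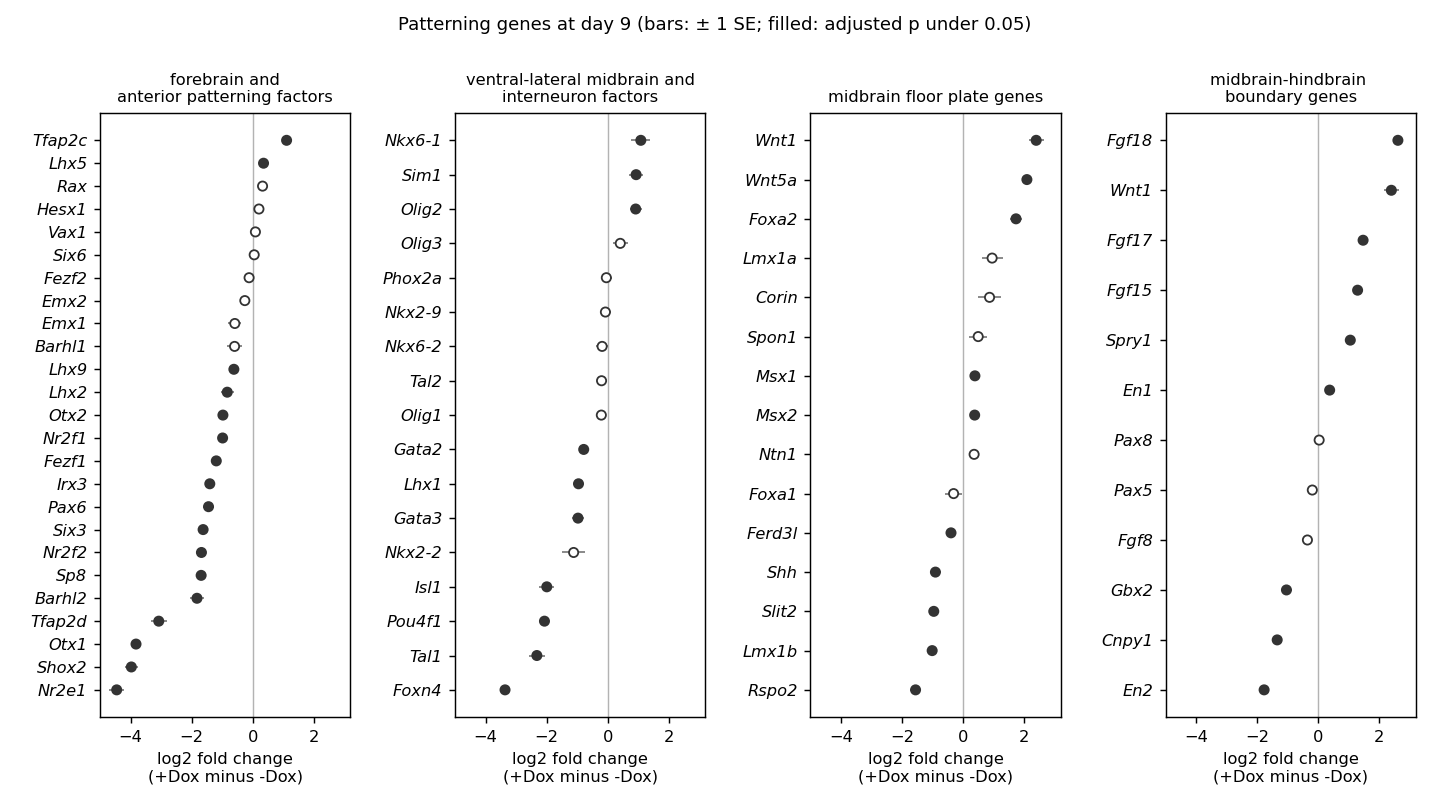
Log2 fold change at day 9, arrays labelled +Dox minus arrays labelled -Dox (horizontal axis), for each measured gene of 4 patterning lists. Bars are ± 1 SE from limma, n = 2 arrays per group; filled points passed adjusted p 0.05 and open points did not. Most forebrain factors lie left of 0, while Wnt1, Fgf18, Wnt5a and Foxa2 lie to the right.

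The median change was below 0 in 7 lists of neuron production and function, described here, and was 0.12 in the axon guidance list. Of 17 proneural and neurogenic factors 10 fell and 1 rose (median -0.68). Neurog1, a proneural bHLH factor, read -0.18 and -0.70 in the arrays labelled +Dox, against 1.19 and 1.17 in those labelled -Dox (-1.62 ± 0.23). Its downstream factors Neurod1 (-1.09 ± 0.15) and Neurod4 (-1.05 ± 0.18) fell, as did Nhlh1 (-1.16 ± 0.14), Insm1 (-0.84 ± 0.14) and Ptf1a (-1.74 ± 0.32), which directs GABAergic fate in hindbrain and spinal cord. Neurog2, the proneural factor of midbrain dopaminergic progenitors, did not pass (0.31 ± 0.26, adjusted p = 0.411). Neurod6 rose by 1.26 ± 0.11, from a probe set with a median signal under 2.

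Of 18 cytoskeletal and RNA-binding genes 12 fell and 0 rose (median -0.49). The neurofilament genes Nefm (-1.27 ± 0.20) and Nefl (-1.17 ± 0.087), the RNA-binding protein gene Elavl3 (-0.96 ± 0.13) and the internexin gene Ina (-0.81 ± 0.10) fell, whereas tubulin Tubb3 (-0.24 ± 0.10, adjusted p = 0.0956) and doublecortin Dcx (-0.081 ± 0.11, adjusted p = 0.616) did not pass. Of 19 vesicle release genes 10 fell and 1 rose (median -0.56), including Rab3c (-1.19 ± 0.13), Stx1a (-0.92 ± 0.10) and Rab3a (-0.85 ± 0.13). Sv2b, a vesicle glycoprotein gene of dim signal, was the riser (1.17 ± 0.17).

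Of 12 transmitter identity genes 7 fell and 0 rose, and 3 to 6 fell with any 1 of the 4 arrays left out. Gad2, which makes GABA, read 0.23 and 0.052 in the arrays labelled +Dox, against 2.63 and 2.34 in those labelled -Dox, a change of -2.34 ± 0.14 (adjusted p = 1.02e-05). Gad1, the related enzyme, read 0.45 and 0.38 in the arrays labelled +Dox, against 1.71 and 1.55 in those labelled -Dox (-1.21 ± 0.12), and Slc32a1, the transporter that loads GABA into vesicles, changed by -1.04 ± 0.17. The groups were separate for each of these genes. Slc17a6, the glutamate transporter of vesicles, fell (-0.87 ± 0.21), and cholinergic Chat (0.052 ± 0.14) did not pass. Slc17a6 did not pass without replicate 1 of the arrays labelled +Dox, replicate 1 of the arrays labelled -Dox or replicate 2 of the arrays labelled -Dox (adjusted p = 0.0629, 0.0605 and 0.052). Of 18 receptor subunits 12 fell and 0 rose, with Gria1 (-2.15 ± 0.15), an AMPA receptor subunit, and Gabra3 (-1.02 ± 0.15), a GABA receptor subunit, among them. In a fit of only the 4 day 9 arrays, 9 receptor subunits fell. Of 17 voltage-gated channels 7 fell, such as Kcnj3 (-1.59 ± 0.15) and the neuronal sodium channel Scn2a (-1.52 ± 0.15), and Scn11a was the 1 that rose. Of 16 neuropeptide genes 11 fell, led by Cartpt (-1.74 ± 0.12), Adcyap1 (-1.62 ± 0.21) and somatostatin, Sst (-1.47 ± 0.14), and neuropeptide Y, Npy, rose (0.80 ± 0.11). In the fit of only the 4 day 9 arrays, 8 neuropeptide genes fell.

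Progenitor genes as a list did not share this direction: 3 of 16 rose and 5 fell (2 to 4 with 1 array left out), with a median of -0.089. The glutamate transporter of radial glia, Slc1a3, read 1.51 and 1.36 in the arrays labelled +Dox, against 0.26 and 0.18 in those labelled -Dox (1.21 ± 0.11), and nestin, Nes, rose by 0.81 ± 0.12. The dorsal paired-box genes Pax3 (-1.77 ± 0.11) and Pax7 (-1.64 ± 0.11) fell most. Sox1 (0.22 ± 0.15) did not pass. Axon guidance genes held 4 rises, a share near the 16.9% of all genes, and 6 falls (3 to 5 with 1 array left out) of 23, with the netrin receptors Unc5c (1.46 ± 0.17) and Unc5d (-1.24 ± 0.11) on opposite sides. Cortical hem and Cajal-Retzius genes held 4 rises (2 to 3 with 1 array left out) and 4 falls of 13, the falls including Rspo3 (-2.08 ± 0.11), a secreted enhancer of Wnt signalling. Of 11 glial genes 1 rose and 1 fell.

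Several secreted inhibitors and feedback targets of Wnt signalling rose. Sp5, a direct Wnt target, read 0.77 and 0.62 in the arrays labelled +Dox, against -1.22 and -1.70 in those labelled -Dox (2.16 ± 0.18). Notum, an enzyme that inactivates Wnt proteins, read 1.84 and 1.84 in the arrays labelled +Dox, against -0.20 and -0.24 in those labelled -Dox (2.06 ± 0.080). Dkk1, a secreted blocker of the Wnt co-receptor, changed by 1.41 ± 0.16, and Tnfrsf19 by 1.39 ± 0.14. Axin2, the usual readout of the pathway, did not pass (-0.35 ± 0.26, adjusted p = 0.357), and the soluble Wnt-binding protein gene Sfrp2 fell (-1.24 ± 0.12), so that 7 of 18 rose and 6 fell (1 to 3 with 1 array left out).

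Of 12 Fgf feedback genes, 3 rose and 2 fell. The receptor inhibitor Il17rd read 0.16 and 0.29 in the arrays labelled +Dox, against -1.43 and -1.55 in those labelled -Dox (1.72 ± 0.11), and Spry1 (1.06 ± 0.13) and the Ets factor Etv4 (0.98 ± 0.14) rose. With any 1 of the 4 arrays left out, 3 to 4 of the list rose and 1 fell. Of 15 Bmp and Id genes 7 rose and 1 fell. The ligands Bmp7 (1.27 ± 0.11) and Bmp6 (1.30 ± 0.19), the target Id3 (1.15 ± 0.14) and the decoy receptor Bambi (1.04 ± 0.16) were higher. Id2 fell (-0.75 ± 0.12), and Id1 did not pass (-0.35 ± 0.15). Of 14 activin and nodal genes 5 rose and 0 fell, Inhbb among them. With any 1 of the 4 arrays left out, 2 to 4 of these rose.

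In the hedgehog list 5 of 9 rose (2 to 3 with 1 array left out) and 1 fell. The co-receptor Cdon read 1.30 and 1.32 in the arrays labelled +Dox, against -1.0 and -1.13 in those labelled -Dox (2.38 ± 0.10) while its relative Boc fell (-0.86 ± 0.093). The target Gli1 rose by 0.73 ± 0.14, and the receptor and target Ptch1 did not pass (0.0092 ± 0.087). Of the Notch genes the ligand genes Jag1 (-0.62 ± 0.11) and Jag2 (-0.72 ± 0.11) fell, and the target genes Heyl (1.02 ± 0.16) and Hes1 (0.76 ± 0.15) rose. Hes6, whose protein opposes Hes1, fell (-0.41 ± 0.082), but did not pass in a fit of only the 4 day 9 arrays (adjusted p = 0.0526). The list held 6 rises and 5 falls of 17. Retinoic acid genes held 7 rises and 2 falls of 13. The retinol carrier Rbp4 read 2.04 and 1.50 in the arrays labelled +Dox, against -0.66 and 0.0011 in those labelled -Dox (2.10 ± 0.24), its receptor Stra6 changed by 1.85 ± 0.15 and the synthetic enzyme Aldh1a2 by 1.23 ± 0.21. Of the degrading enzymes, Cyp26a1 rose (1.10 ± 0.18) and Cyp26b1 fell, as given above.

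Several markers of other lineages were higher. Of 14 simple epithelium genes 9 rose and 0 fell (median 1.08), against 16.9% of all genes. Epcam, an epithelial adhesion molecule, read 0.39 and 0.30 in the arrays labelled +Dox, against -1.09 and -1.28 in those labelled -Dox (1.53 ± 0.15). E-cadherin, Cdh1, read 0.032 and 0.064 in the arrays labelled +Dox, against -1.03 and -1.13 in those labelled -Dox (1.13 ± 0.085), and the keratin genes Krt7 (1.62 ± 0.22), Krt19 (1.40 ± 0.20) and Krt8 (1.19 ± 0.17) rose. Mean values of the list were 0.55 and 0.36 in the arrays labelled +Dox, against -0.38 and -0.49 in those labelled -Dox. Trp63, a marker of stratified epithelium, did not pass (0.060 ± 0.20).

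Mesoderm and endoderm genes followed with 9 rises and 0 falls of 15. The endoderm factors Gata6 (1.34 ± 0.17) and Gata4 (1.21 ± 0.20) and the adaptor Dab2 (1.53 ± 0.18) rose, while the early mesoderm and mesendoderm genes Mixl1 (-0.12 ± 0.25) and Gsc (-0.33 ± 0.22) did not pass. Mesenchyme, endothelium and blood genes held 7 rises and 0 falls of 17, against 16.9% and 11.3% of all genes. Besides Foxc2 and Islr, the endothelial receptor Tek (1.51 ± 0.12) and the mesenchymal factor Prrx1 (1.01 ± 0.18) rose, while the endothelial genes Pecam1 (0.031 ± 0.26), Cdh5 (0.20 ± 0.12) and Kdr (-0.12 ± 0.18) did not pass and lay in the class of 2 to 4. Neural crest genes were mixed, 5 up and 4 down of 12, with the receptor Erbb3 (1.86 ± 0.20) and the transcriptional repressor Snai1 (1.18 ± 0.22) above and Tfap2b (-1.52 ± 0.12) below. Sox10, the defining crest factor, did not pass (-0.15 ± 0.15).

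Of 18 matrix genes 10 rose and 2 fell. Those of basement membrane were among them: Lamb1 (1.20 ± 0.11), Lama1 (1.06 ± 0.13), Col18a1 (1.24 ± 0.13) and Col4a1 (0.68 ± 0.11). Col3a1, a fibrillar collagen (-1.44 ± 0.24), and Col9a1, a collagen of cartilage and eye (-1.93 ± 0.35), fell. Pluripotency genes held 11 rises (7 to 8 with 1 array left out) and 0 falls of 16, including Fbxo15 (1.36 ± 0.17), Zfp42 (1.29 ± 0.15) and Nanog (0.74 ± 0.15). The list's mean values were 0.37 and 0.28 in the arrays labelled +Dox, against -0.28 and -0.28 in those labelled -Dox. The part of undifferentiated or non-neural cells in the neuronal falls was not tested.

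Cell cycle genes rose by small amounts in nearly the whole list. Of 23 replication and mitosis genes 19 rose (12 to 16 with 1 array left out) and 0 fell (median 0.48). Ccne1, the cyclin of entry into S phase, read 0.0025 and -0.060 in the arrays labelled +Dox, against -0.92 and -1.05 in those labelled -Dox (0.95 ± 0.091). The helicase genes Mcm3 (0.79 ± 0.076) and Mcm6 (0.69 ± 0.090) and the proliferation marker Mki67 (0.71 ± 0.092) rose, and E2f1 did not pass (0.041 ± 0.17). Cell cycle inhibitors and p53 targets were divided, 3 up (1 to 2 with 1 array left out) and 3 down of 13. Cdkn2b, an inhibitor of the G1 cyclin kinases, rose (1.29 ± 0.22).

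Lists that Dox itself can touch, and some further lists, were counted too, without a parental array of day 9 to set them against. Dox can hamper mitochondrial translation, which cells answer with the integrated stress response, and of 15 genes of that response 2 rose and 3 fell (1 to 3 with 1 array left out), with a median of 0.081. Of its genes, Atf4 (-0.079 ± 0.082) and Trib3 (0.33 ± 0.18) did not pass and Ddit3 fell (-0.64 ± 0.088). Whether Dox acted in this way was not tested. Of 17 complex I and mitochondrial ribosome genes 7 rose and 0 fell, against 16.9% and 11.3% of all genes, with a median of 0.23. Mrps2, of the mitochondrial ribosome, rose by 0.56 ± 0.081. Cholesterol synthesis genes gave 1 rise and 2 falls of 15, imprinted growth genes 5 rises and 5 falls of 14, and immediate early genes 3 rises and 1 fall of 12. With 1 array left out these lists held 0 to 1, 3 to 5 and 1 to 2 rises and 1 to 2, 2 to 3 and 0 to 1 falls. Among imprinted genes Peg10 (-1.65 ± 0.22) fell and Mest (0.82 ± 0.10) rose.

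Probe sets of 1 gene did not always move together. Of the 197 genes named here, 21 had a probe set with a change of the other sign, 12 of them among those that passed. The values above come from the probe sets of the brightest class, and sizes and ranks depend on this choice. Averaged over all probe sets, the changes were -2.44 for Nr2e1, -1.43 for Mxra7, -1.84 for G630016G05Rik, -1.57 for Ndst3, -1.45 for Ndnf and -1.53 for Glra1. They were 1.45 for Inhbb, 1.29 for Mcoln3 and -2.88 for Shox2. These genes kept their direction and call. Of the 15 largest rises 13, and of the 15 largest falls 7, had 1 probe set. Sez6l, which encodes a neuronal membrane protein, changed by -0.95 ± 0.14 on its brightest probe sets, with probe sets from -0.95 to 0.84. Etv4 had probe sets from -0.32 to 0.98. Averaged over all their probe sets, neither passed: Sez6l gave -0.055 (adjusted p = 0.807) and Etv4 0.33 (adjusted p = 0.0845). Tnfrsf19 (-0.28 to 2.14), Prrx1 (-0.28 to 1.47), Gata6 (-0.25 to 1.34), Heyl (-0.16 to 1.02) and Mcm6 (-0.40 to 0.75) each had a lower probe set of the other sign, while Dmrt3 (0.10), Kcnj3 (0.065), Gabra3 (0.089) and Rab3c (0.15) had a highest probe set just above 0.

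**Figure D3:**
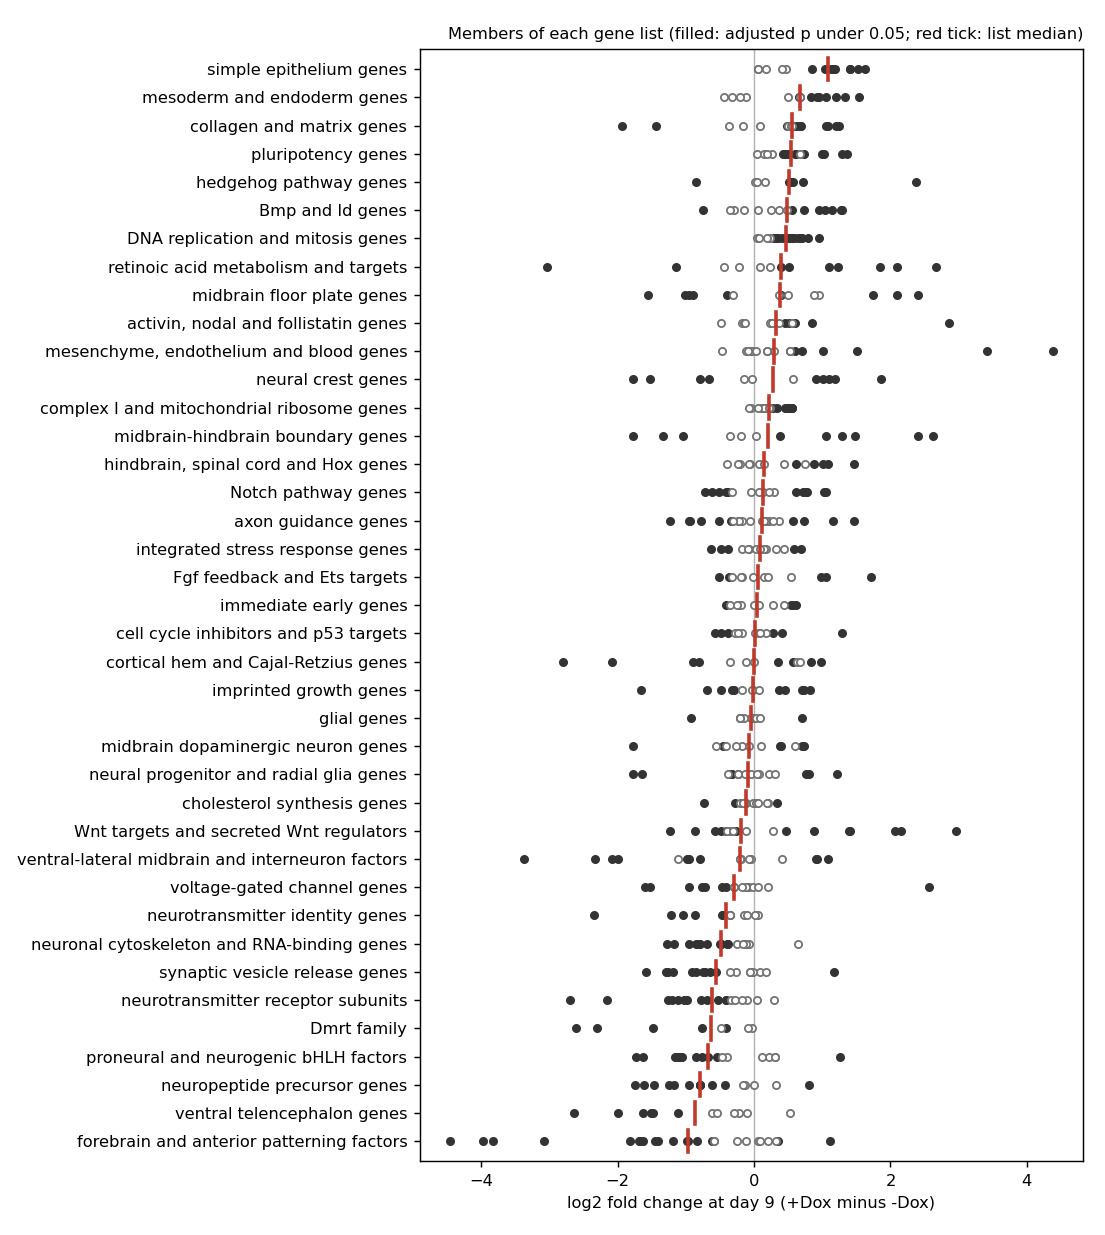
Log2 fold change at day 9, arrays labelled +Dox minus arrays labelled -Dox (horizontal axis), of every measured member of the 39 gene lists (rows); filled points passed adjusted p 0.05, open points did not, and vertical ticks are list medians. Epithelium genes have the highest median, at 1.08, and forebrain factors the lowest, at -0.97.

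The response at day 9 was set against that of the same line at day 7 by a test of the difference itself. It passed for 441 of 18193 genes (2.42%), 260 more positive (1.43%) and 181 more negative (0.995%) at day 9. This count is unstable: it was 116 without replicate 1 and 203 without replicate 2 of the day 9 arrays labelled -Dox, 220 without replicate 1 of the day 9 arrays labelled +Dox, and 84 to 141 without any 1 of the day 7 arrays. Of the 464 genes raised at least 2-fold at day 9, 187 had also passed upward at day 7, which is 40.3% of them and 33.3% of the 561 genes that rose then (3.08% of all genes). Of the 337 lowered at least 2-fold, 206 had also passed downward at day 7, which is 61.1% of them and 29.4% of the 701 genes that fell then (3.85% of all genes). None of the 801 genes had passed in the other direction at day 7.

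Olig2, a bHLH factor of motor neuron, oligodendrocyte and midbrain progenitors, had the largest positive difference. Its Dox response was 0.92 ± 0.20 at day 9 and -1.68 ± 0.20 at day 7, a difference of 2.59 ± 0.28 (adjusted p = 0.00465). From day 7 to day 9 it moved by 1.47 in the arrays labelled +Dox and by -1.12 in those labelled -Dox, so its order between the groups turned round. Etv4, Shisa3 and Sez6l were likewise among the 18 genes that passed at both days in opposite directions. For Etv4 and Sez6l this holds only for the brightest probe sets: with the mean over all probe sets the day 9 response did not pass (adjusted p = 0.0845 and 0.807). For Olig2 the difference was 2.59 without replicate 1 of the day 9 arrays labelled +Dox.

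Several of the genes with a more positive response at day 9 moved up with time in the arrays labelled +Dox. In those labelled -Dox they moved by smaller amounts, up or down. P2ry14, a nucleotide-sugar receptor gene, moved by 2.13 with Dox and 0.039 without. Gkn2, a gastrokine, moved by 2.29 and 0.27, Shisa3 by 1.59 and -0.43, and 3110039M20Rik by 1.84 and -0.20, with Dox and without. Wif1 (2.06 and 0.052) and Inhbb (2.29 and 0.55) showed the same order, and Inhbb passed as a rise without Dox too (adjusted p = 0.0226). Differences between the days in Dox response were 2.10 ± 0.44 for P2ry14, 2.02 ± 0.26 for Gkn2 and 2.02 ± 0.19 for Shisa3.

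For other genes the arrays labelled -Dox did the moving, downward. Pla2g7 moved by 0.43 with Dox and -2.13 without, Mcoln3 by 0.58 and -1.73, and Foxc2 by -0.18 and -1.98. Ddn moved down in both groups, by -0.90 with Dox and by -2.80 without. Cntn6 moved up with Dox, by 0.98, and down without it, by -1.32. Of the 464 genes raised at least 2-fold at day 9, 171 rose with time in the arrays labelled +Dox (10% of all genes did) and 163 fell with time in those labelled -Dox (7.11% of all genes). In the other direction, 28 of them fell with time with Dox (6.19% of all genes) and 27 rose without it (7.88%). These counts use the same day 9 arrays as the Dox response, which raises the first pair, so they describe and give no separate support.

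Several genes that went up with time without Dox were among the most negative differences. Lamp5, a membrane protein gene of brain neurons, read 0.36 and 0.72 in the arrays labelled +Dox, against 2.77 and 2.70 in those labelled -Dox, and moved from day 7 by 0.78 with Dox and 2.82 without. The calcium-binding protein gene Calb1 moved by -0.74 and 1.58, and Crhbp, which binds corticotropin-releasing hormone, by -1.21 and 1.11, with Dox and without. At day 7 the Dox responses of these 3 genes were -0.16, -0.040 and 0.020, and at day 9 they were -2.19, -2.36 and -2.30. Shox2 (-2.05 ± 0.29), Sez6l (-2.25 ± 0.20) and Minar2 (-1.89 ± 0.31) also had negative differences, and so did 4930481B07Rik (-1.90 ± 0.38) and Defa31 (-1.77 ± 0.36). Defa31 is one of a family of highly similar defensin genes whose reads a probe set may mix. Its day 9 response was itself a rise, so its difference marks a smaller rise than at day 7. Gad2 (difference -1.66 ± 0.20), Gad1 (-0.88 ± 0.16), Syt4 (-1.17 ± 0.17) and Scn2a (-1.16 ± 0.21) passed the same test. With 1 of the 8 arrays of the line left out, the difference did not pass for P2ry14 (adjusted p up to 0.149), Cntn6 (0.0537), 4930481B07Rik (0.138), Minar2 (0.0798), Defa31 (0.143), Ddn (0.0582), Gad1 (0.115), Syt4 (0.0561), Scn2a (0.103). Of the 337 genes lowered at least 2-fold, 64 fell with time in the arrays labelled +Dox (6.19% of all genes) and 82 rose (10%). In the arrays labelled -Dox, 16 of them fell with time (7.11%) and 166 rose (7.88%). The day 9 arrays are again shared with the Dox response, which raises the falls with Dox and the rises without it.

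**Figure D4:**
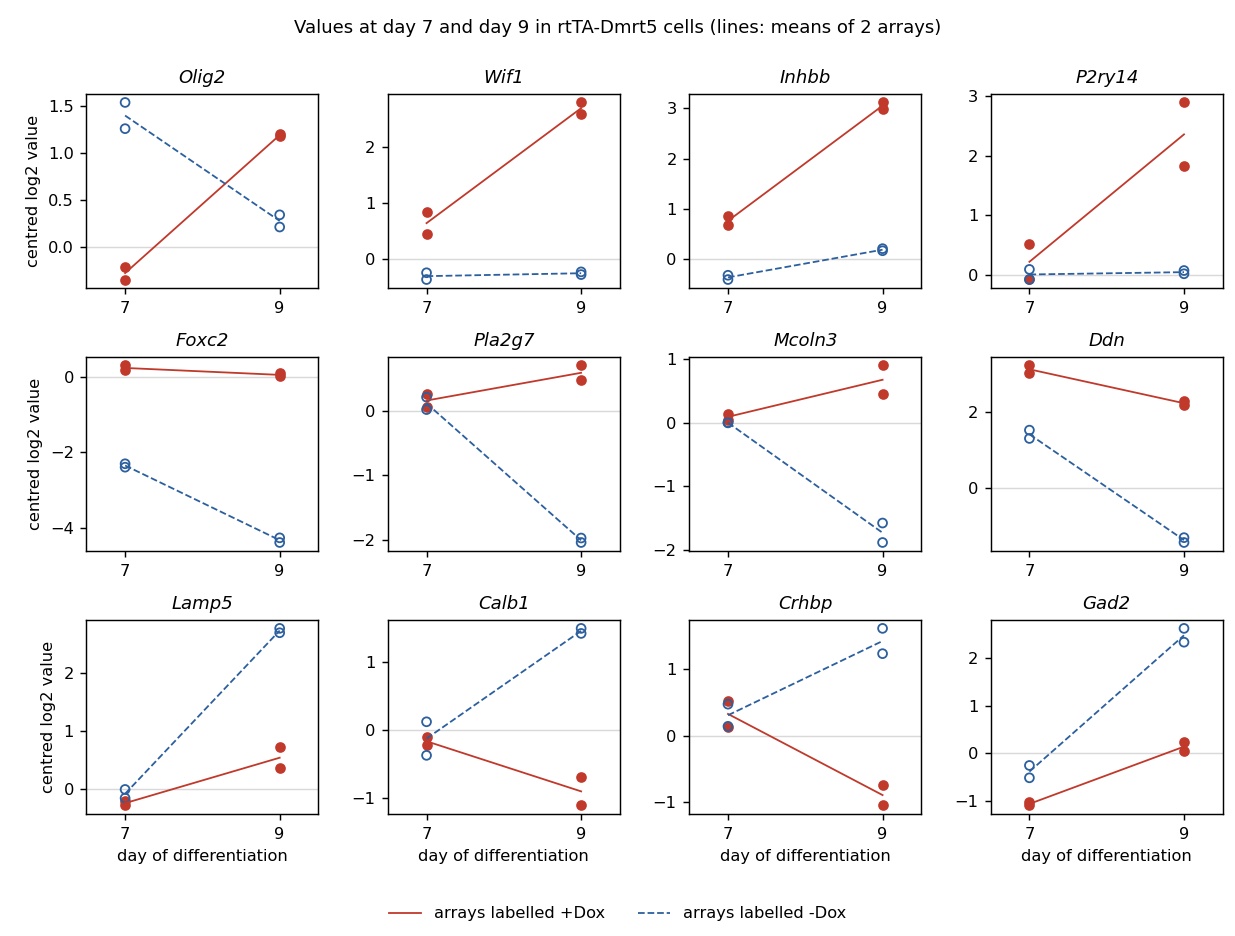
Centred log2 value (vertical axis) at day 7 and day 9 (horizontal axis) for 12 genes of rtTA-Dmrt5 cells. Filled red points and lines are arrays labelled +Dox, open blue points and dashed lines arrays labelled -Dox, with 2 arrays per point set and lines through their means. Olig2 changes order between the days, Wif1 and Inhbb climb with Dox, Foxc2 and Pla2g7 drop without it, and Lamp5, Calb1 and Gad2 climb without it.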

How the data were processed

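Total RNA (5 ng per sample, per the labels) of 12 samples was hybridised to mouse expression arrays. Per the submitters' processing notes the authors used RMA. The deposited log2 values are centred: the largest absolute row median over the arrays is 5e-07, so no level is given. The log base and the centring are not stated in the sources used here, and the base was taken as 2, as RMA gives. A class of median level (under 2, 2 to 4, 4 to 8, at least 8) was read from the rounding of the values. On 20000 simulated probe sets it was right for 96.1% and too high for 3.92%. Of 45101 probe sets, 34945 had 1 gene symbol in the platform annotation, 932 several and 9160 none, and 34741 of the first were found in the RefSeq table. Probe sets of a gene's brightest class were averaged to give its value, for 18193 genes.

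Groups came from the titles. The limma package 3.58.1 (R 4.3.3) was fitted with 6 group means over all 12 arrays (6 residual degrees of freedom, 3.59 prior), with eBayes and Benjamini-Hochberg adjustment over all genes, two-sided, threshold 0.05. With 2 arrays against 2 an exact permutation test could not go below p = 0.333. In values simulated for the day 9 comparison over 18193 genes, 78 of 100 genes changed by 1 log2 unit passed. So did 21 of 100 changed by 0.5 and 9 of 17993 unchanged genes. The changed genes were a far smaller share there than the 28.2% called in the data. Noise was drawn for each gene on its own. These rates are therefore not those of the data, and shifts shared by the genes of an array are not covered. Named genes are Dmrta2, the 15 largest rises and falls past the threshold without overlap, the 8 largest differences between days in each direction, and members of 39 gene lists. The members and lists were chosen with earlier results of these data known. Alternatives changed the block, arrays, scaling, weights, probe set summary, level filter, threshold and size. Listed genes without a named probe set were not analysed here.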

Additional observations from a re-analysis of the deposited data

Results flagged for a closer look

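The test of the difference between the day 9 and day 7 Dox responses passed for 441 genes. Values below are the day 9 response minus the day 7 response on the log2 scale, and each gene is listed because the difference itself passed the test. Its count depends on single arrays, as given above, and no cause was tested. Calls of single genes can depend on them too, and genes named above as losing the call are marked. For most other genes below, the call with an array left out is not given, so an unmarked gene was not shown to keep it. In a fit that took same-numbered arrays as pairs, 74 positive and 41 negative differences passed. Of these, 68 and 38 were at least 2-fold, so few smaller differences passed there.

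Among the 15 largest rises the response was more positive at day 9 for Pla2g7 (2.56), Mcoln3 (2.32), Cntn6 (2.29), 3110039M20Rik (2.04), Wif1 (2.01), Ddn (1.90), Foxc2 (1.80), Krtap17-1 (1.80) and Inhbb (1.74). Outside them, Olig2 (2.59), P2ry14 (2.10), Shisa3 (2.02) and Gkn2 (2.02) had the largest positive differences. Among the 15 largest falls it was more negative for Shox2 (-2.05), G630016G05Rik (-1.54), Otx1 (-1.43), Foxn4 (-1.14) and Gm38604 (-1.08). The most negative differences outside them were those of Crhbp (-2.32), Calb1 (-2.32), Sez6l (-2.25), Lamp5 (-2.03), 4930481B07Rik (-1.90), Minar2 (-1.89) and Defa31 (-1.77). With some single arrays left out, the difference did not pass for Cntn6, Ddn, P2ry14, 4930481B07Rik, Minar2 and Defa31, as given above. For Sez6l the day 9 response itself did not pass with the mean over all probe sets.

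Of the signalling genes named above for which it passed, the Fgf genes Il17rd (1.78), Etv4 (1.59) and Spry1 (1.25), the Wnt genes Wnt5a (1.37) and Notum (1.32), the hedgehog co-receptor gene Cdon (1.20) and the Bmp target Id3 (1.11) responded more positively at day 9, and the Notch ligand gene Jag1 more negatively (-0.79). Epithelial Epcam (0.96) and Cdh1 (0.76), endothelial Tek (0.79), the crest receptor gene Erbb3 (1.27), laminin Lamb1 (0.77), the replication helicase gene Mcm3 (0.59) and imprinted Mest (0.71) were also on the positive side. The limit given above for differences under 2-fold applies to the smaller ones here. For Etv4 the day 9 response itself did not pass with the mean over all probe sets, as given above.

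Of the neuronal genes named above, the difference was negative for Gad2 (-1.66), Gabra3 (-1.24), Syt4 (-1.17), Scn2a (-1.16), Rab3c (-1.02), Kcnj3 (-1.0), Gad1 (-0.88) and the netrin receptor gene Unc5d (-1.10), but its relative Unc5c (1.22), Neurod6 (1.49) and Npy (0.83) were positive. Of the patterning genes Lhx1 (-1.26), Gata2 (-1.13), Pou4f1 (-0.99), Lmx1b (-0.89), En1 (-0.82) and Pax7 (-0.74) were negative. The day 9 response of En1 was a rise, so its difference marks a smaller rise than at day 7. Th (1.38), Nr2f1 (0.99) and Dmrt1 (0.89) were positive, with day 7 responses of -1.79, -1.97 and -1.30, below those of day 9. With some single arrays left out, the difference did not pass for Gad1, Syt4, Scn2a and Th, as given above. The day 9 response itself did not pass for Th. That of En1 did not pass with any single day 9 array left out, and that of Dmrt1 with some of them.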

How the results depend on the processing

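The number of genes called at day 9 was 5129. Fitting only the 4 day 9 arrays gave 3188, testing only the 5981 genes of the brightest class gave 2853, and testing each of 34945 probe sets gave 7774. A threshold of 0.01 gave 2799 and a change of at least 2-fold gave 801. With 1 of the 4 arrays left out the count was 3063 to 4658. For the difference between days, the main count was 441, only the 8 rtTA-Dmrt5 arrays gave 250, the mean over all probe sets 280, a threshold of 0.01 62, at least 2-fold 202, only the 5981 genes of the brightest class 653 and leaving out 1 array 84 to 583. The smaller tables and fewer arrays are part of these alternatives, and the cause of the other shifts was not tested. With the replicate block the counts were 4678 at day 9 and 115 for the difference, and since deviations of same-numbered arrays correlated at 0.11 (day 9) and -0.049 (day 7), the numbers were not taken as pairs.

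Of the 170 named genes that passed, 12 missed the threshold under at least 1 alternative and none changed sign: Lhx5, Dmrtb1, Dmrt1, Dlx2, Nkx6-1, Nr4a2, En1, Slc17a6, Hes6, Etv4, Sez6l and Defa31, whose day 9 response (0.82 ± 0.26) gave adjusted p up to 0.202 with 1 array left out. Among named genes that had not passed, the sign turned for Emx1 (0.10), Ptch1 (-0.052) and Sox1 (-0.075) with the mean over all probe sets, and for Dmrt2 (0.025) with scaling to the polyA controls. It also turned with 1 array left out, over ranges of -0.12 to 0.23 for Chat, -0.12 to 0.060 for Dmrt2, -0.070 to 0.15 for E2f1, -0.11 to 0.0044 for Hoxa5, -0.31 to 0.064 for Kdr, -0.51 to 0.26 for Mixl1, -0.30 to 0.37 for Pecam1, -0.39 to 0.022 for Pitx3, -0.028 to 0.047 for Ptch1, -0.015 to 0.45 for Sox1, -0.38 to 0.073 for Sox10 and -0.13 to 0.25 for Trp63. Of 624 list counts under the alternatives, 86 moved by over 1.5 times. The list counts with 1 array left out were chosen after seeing the data. The 2 arrays per group and amplification from 5 ng of RNA limit what can be detected, and a gene that did not pass may still differ.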
